A study of Arabidopsis thaliana with 8 samples.

Results

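Jasmonate and wound response genes of the Arabidopsis shoot were followed as a set of 6 genes through brassinosteroid treatment, heat and recovery. The genes were LOX2 (AT3G45140), PLA2A (AT2G26560), CORI3 (AT4G23600), the jacalin lectin gene AT1G52000, KTI1 (AT1G73260) and BGLU18 (AT1G52400), chosen by locus from the authors' deposited fold tables. They are 6 of 692 genes that those tables name by a single locus, and the array as a whole gave 22746 probe sets for testing. Each of the 6 genes had 1 probe set. Seedlings of the Columbia ecotype were grown for 21 days on medium with 1 µM 24-epibrassinolide (EBR), a synthetic brassinosteroid hormone, or with 0.01% ethanol as the control. Tissue above the medium was frozen without stress (0 h), after 1 h or 3 h at 43°C, and, for recovery, once seedlings heated for 3 h had spent 6 h at 22°C. The 2 arms and 4 stages make 8 groups, each with 1 deposited sample that stands for 3 replicate arrays with at least 30 pooled seedlings per treatment. No mutant or transgenic line was used, so genotype and age were shared by all groups.

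Jasmonates are lipid hormones made in the chloroplast from fatty acids that lipases release and lipoxygenases oxidise. The active conjugate binds the receptor COI1, which removes JAZ repressors and frees MYC transcription factors to switch on defence genes against wounding, insects and some pathogens. In leaves the outputs include lectins, protease inhibitors, enzymes that break down stored glucosides, and enzymes of jasmonate synthesis itself. The set holds a synthesis gene (LOX2), a lipid hydrolase gene (PLA2A) and 4 defence outputs. The label was only partly borne out by the annotation in the authors' deposited tables, where 2 of the 6 genes, LOX2 and CORI3, carried Gene Ontology terms for jasmonic acid and for wounding, and none carried a term for brassinosteroid or for heat. Among all 692 named probe sets 14 carried a jasmonic acid term and 8 a wounding term. The 6 genes are therefore best read as a list assembled by hand.

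The value table holds, for each probe set and stage, a ratio to the control of the same stage, so it gives an EBR effect at all 4 stages but no signal level. Levels came from the authors' deposited tables, which cover 0 h, 1 h and 3 h as means over arrays without an error. All 6 genes were listed in the authors' deposited tables as at least 2-fold higher with EBR at 0 h, at 1 h and at 3 h. Such listing at all 3 stages, in either direction, held for 19.1% of the named probe sets. Because an EBR effect in these samples decided what the tables list, higher values at those stages are in part a property of the choice. Recovery is the stage for which no fold was listed. Whether the recovery arrays entered the authors' test behind the listing is not known here. Of 19 marker genes for leaf mesophyll, root, flower, epidermis, myrosin cells and guard cells, 2 were named in the tables, the flower gene PI and the epidermal gene MYB16, with mean log2 EBR to control ratios over the stages of -0.75 and -0.95. Neither the leaf nor the root markers could be read, so the tissue label was not checked on markers. In whole shoots, a change in the share of cells that express a gene and a change in RNA per cell cannot be told apart.

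LOX2 encodes the chloroplast 13-lipoxygenase that starts jasmonate synthesis in wounded leaves. Its mean intensity in the authors' deposited tables was 748.8 in control and 3017 in EBR shoots at 0 h, 1005 and 2502 after 1 h, and 624.2 and 1749 after 3 h. Every EBR value lay above every control value, and the control arm was highest after 1 h of heat. In the value table the log2 ratio of EBR to control was 1.42 at 0 h, 0.93 after 1 h, 1.41 after 3 h and 0.77 at recovery. LOX2 was thus the 1 gene of the set that missed 2-fold (a log2 ratio of 1) at 1 h. It ranked 69th of 22746 probe sets at 0 h and 300th at recovery.

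PLA2A encodes a patatin-like lipid acyl hydrolase that pathogens induce. The authors' deposited tables gave intensities of 285.8 in control and 777.3 in EBR shoots at 0 h, 175.2 and 657.7 after 1 h, and 224.7 and 693.2 after 3 h. The EBR arm moved little between these stages and the control arm was lowest after 1 h. Log2 ratios in the value table were 1.39, 1.38 and 1.13 at 0 h, 1 h and 3 h, and 0.20 at recovery, where the gene ranked 3294th. PLA2A thus had the lowest recovery ratio of the set.

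CORI3 encodes a cystine lyase first known as a coronatine-induced gene, coronatine being a bacterial toxin that mimics the active jasmonate. Its intensities in the authors' deposited tables were 151.6 in control and 916.1 in EBR shoots at 0 h, 277.4 and 923.4 after 1 h, and 269.0 and 872.3 after 3 h. The EBR arm was level through the heat, while both heated control values lay above the unstressed control. CORI3 had log2 ratios of 2.01, 1.24, 1.5 and 1.49 at 0 h, 1 h, 3 h and recovery. Its recovery ratio was the highest of the set and ranked 19th of all probe sets.

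AT1G52000 encodes a jacalin-type lectin, a class of sugar-binding proteins. Control intensities in the authors' deposited tables were 50.7 at 0 h, 100.5 after 1 h and 55.1 after 3 h, against 1266, 519.8 and 429.5 with EBR. No other gene of the set had as large a gap between the arms at 0 h, and none had as low a control intensity at that stage. The part of low signal in this gap was not tested. Value-table log2 ratios were 3.01, 2.04, 1.71 and 1.06 at 0 h, 1 h, 3 h and recovery, and the 0 h ratio ranked 5th of all probe sets. The sizes depended on the source, because the authors' deposited tables put this gene 22.8-fold higher at 0 h and 7.13-fold higher at 3 h, where the value table gave 8.07-fold and 3.27-fold.

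KTI1 encodes a Kunitz trypsin inhibitor that restrains cell death during defence. Intensities in the authors' deposited tables were 107.0 in control and 577.9 in EBR shoots at 0 h, 31.4 and 186.2 after 1 h, and 33.1 and 154.7 after 3 h. Both arms were lower during heat than before it, and EBR stayed above control. The heated control intensities were the lowest listed for the set, and the part of low signal in these values was not tested. Log2 ratios of the value table were 1.60, 1.83, 2.02 and 0.33 at 0 h, 1 h, 3 h and recovery. KTI1 therefore went from rank 19 after 3 h of heat to rank 1755 at recovery. Here too the authors' deposited tables gave larger folds, 5.77 at 0 h and 6.26 at 1 h, against 3.03 and 3.57 in the value table.

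BGLU18 encodes a beta-glucosidase of the wound-induced endoplasmic reticulum bodies, which releases abscisic acid from its glucose ester. The authors' deposited tables gave intensities of 831.8 in control and 4453 in EBR shoots at 0 h, 826.5 and 2911 after 1 h, and 503.4 and 1652 after 3 h. The EBR arm was lower at each later stage, whereas the control arm was lower only after 3 h. BGLU18 had log2 ratios of 1.80, 1.67, 1.37 and 0.43 at 0 h, 1 h, 3 h and recovery. The order of the stages was therefore the same as for PLA2A and AT1G52000, and recovery was again the lowest.

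**Figure D1:**
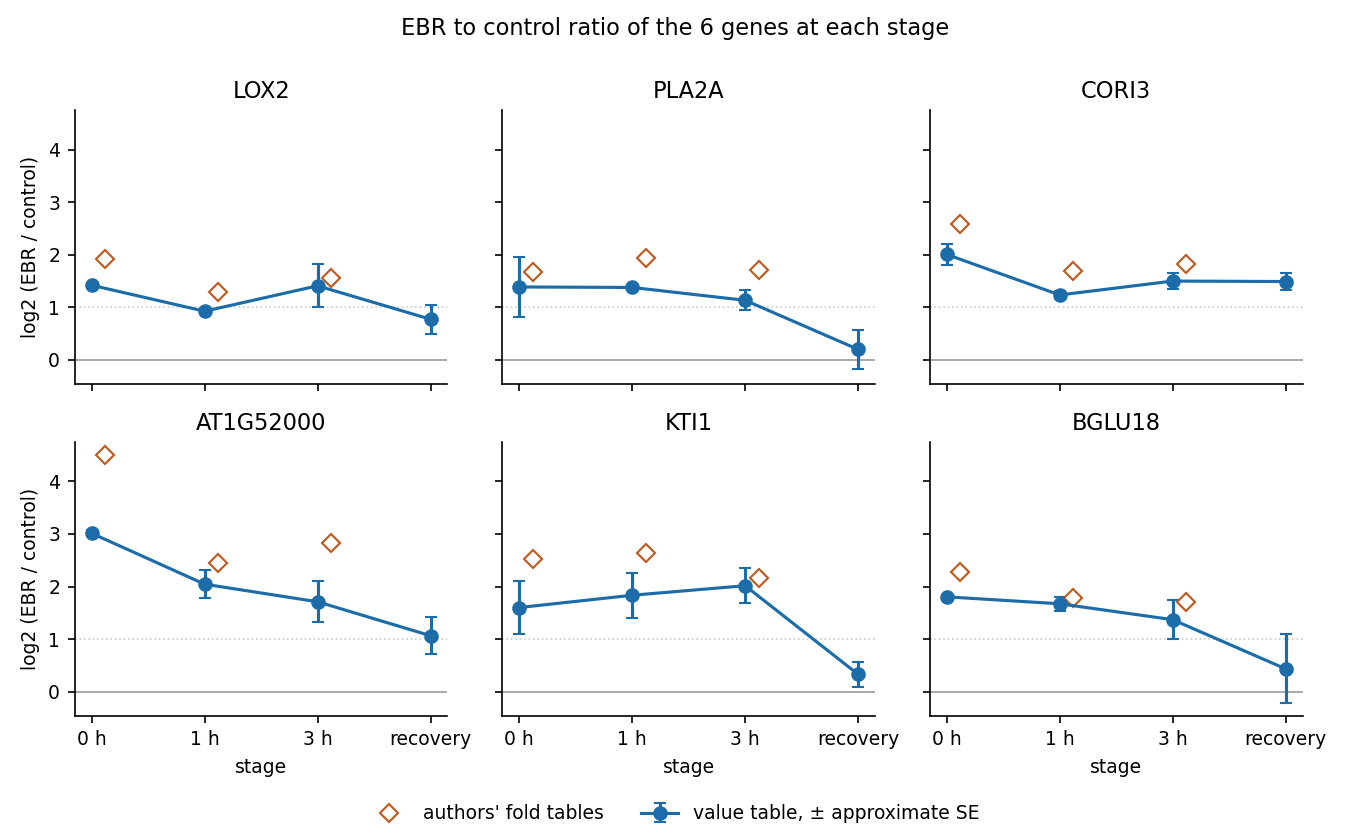
The log2 ratio of EBR to control is plotted by stage for each gene, with value-table ratios as filled circles (bars are an approximate standard error read from the control columns) and ratios from the authors' deposited tables as open diamonds, which exist for 0 h, 1 h and 3 h. The recovery point is the lowest of the 4 value-table ratios for every gene except CORI3, and all diamonds lie above the circles of the same stage.

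Across the set, the value-table log2 ratio ran from 1.39 to 3.01 at 0 h, from 0.93 to 2.04 at 1 h, from 1.13 to 2.02 at 3 h and from 0.20 to 1.49 at recovery. At least 2-fold higher with EBR were 6 genes at 0 h, 5 at 1 h, 6 at 3 h and 2 at recovery (CORI3 and AT1G52000). The share of all probe sets that far apart was 0.95%, 0.677%, 0.818% and 0.585% at these stages in order, and among the named probe sets 16.6%, 13.3%, 14.2% and 7.8%. At recovery, of the 117 probe sets that the authors' deposited tables list as higher with EBR at each of the 3 earlier stages, 32.5% were at least 2-fold higher, so 2 of 6 is close to the rate of genes chosen the same way. For 18 ratios both sources were at hand, and the authors' deposited tables gave the larger one in all 18.

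An approximate error was read from the control columns of the value table, which fall short of 1 by an amount taken as the spread of the 3 control arrays. This reading is an inference, and EBR arrays were assumed to vary like control arrays. Of the 24 ratios, 21 were at least 2 of these standard errors above 0. The 3 that were not were the recovery ratios of PLA2A (0.20, approximate SE 0.38), KTI1 (0.33, approximate SE 0.24) and BGLU18 (0.43, approximate SE 0.66). At recovery LOX2 (0.77, approximate SE 0.28), AT1G52000 (1.06, approximate SE 0.35) and CORI3 (1.49, approximate SE 0.17) lay further from control.

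Whether EBR shifted the genes whatever the temperature was tested with limma on the 4 stage ratios, with Benjamini-Hochberg adjustment over all probe sets. All 6 genes rose. Their listing as higher with EBR at 0 h, 1 h and 3 h had largely fixed this outcome in advance, so the calls are no independent evidence of an EBR effect. AT1G52000 had the largest mean log2 ratio, 1.96 ± 0.81 (SD, n = 4 stages; limma adjusted p = 0.00631), and CORI3 followed with 1.56 ± 0.32 (limma adjusted p = 0.00134). KTI1 rose by 1.45 ± 0.76 (limma adjusted p = 0.0124) and BGLU18 by 1.32 ± 0.62 (limma adjusted p = 0.0091). For LOX2 the mean was 1.13 ± 0.33 (limma adjusted p = 0.0027) and for PLA2A 1.02 ± 0.56 (limma adjusted p = 0.0153). The ratio was above 0 at 4 of 4 stages for each of them. Neighbours in this order lay closer together than the larger of their SDs. The same test called 5.06% of all probe sets as risen and 5.91% as fallen, and 26.1% had an unadjusted p below 0.05. Of the 692 named probe sets, which had been selected for an EBR effect, 44.4% rose and 25.3% fell. These p-values measure agreement between stages and say nothing of variation among arrays of 1 stage.

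The calls of LOX2 and CORI3 held when any 1 stage was left out, with limma adjusted p-values of at most 0.0275 and 0.0185. Without the 1 h ratio only these genes were called, and the limma adjusted p was 0.0556 for AT1G52000, 0.0703 for BGLU18, 0.0879 for KTI1 and 0.0994 for PLA2A. Without the 3 h ratio the calls were those of LOX2, CORI3 and AT1G52000, and the limma adjusted p-values of BGLU18, KTI1 and PLA2A were 0.0526, 0.0656 and 0.0779. Leaving out 0 h ended the calls of KTI1 (limma adjusted p = 0.0534) and PLA2A (limma adjusted p = 0.0648). Calls were lost over the whole array as well, from 2495 probe sets to 787, 448 and 832 without 0 h, 1 h and 3 h. Each of these tests kept stages at which the genes had been listed, so a call that held is no independent evidence. The array also measures RNA integrity through probe sets at both transcript ends of housekeeping genes. The ratio of 3' over 5' end at 1 h exceeded that of control shoots in EBR shoots by a log2 of 0.29 to 0.57 in all 4 pairs. Its part in the ratios was not tested.

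The next question was whether the EBR effect at recovery differed from that before and during heat. In this limma contrast recovery has 1 ratio and is assumed to vary like the other 3 stages. PLA2A, KTI1 and BGLU18 had a smaller EBR effect at recovery than before. Their log2 ratios were 0.20, 0.33 and 0.43 at recovery, against means of 1.30, 1.82 and 1.62 over 0 h, 1 h and 3 h. KTI1 differed by -1.49 ± 0.18 (SE; limma adjusted p = 0.0366), BGLU18 by -1.18 ± 0.19 (limma adjusted p = 0.049) and PLA2A by -1.10 ± 0.16 (limma adjusted p = 0.0434). AT1G52000 had a difference of similar size but a larger error, -1.19 ± 0.41 (limma adjusted p = 0.261), with a ratio of 3.01 at 0 h among the stages it was set against. LOX2 differed by -0.48 ± 0.21 (limma adjusted p = 0.387). For CORI3 the difference was -0.09 ± 0.26 (limma adjusted p = 0.938), and its recovery ratio of 1.49 lay between those of 1 h and 3 h.

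The same contrast called 0.11% of all probe sets as lower at recovery and 0.374% as higher, and among the named ones 1.3% and 1.01%. Probe sets listed by the authors as higher with EBR at all 3 earlier stages were called in 7.69% of cases (9 of 117), and 77.8% of them had their lowest ratio at recovery, against 5 of the 6 genes here and 31.7% of the array. A smaller effect at recovery was therefore common among genes selected at the earlier stages, with a median difference of -0.51 for those 117 and -1.14 for the set. The 3 calls lay close to the threshold. None held without the 1 h ratio, where the limma adjusted p was 0.0528 for KTI1, 0.0707 for PLA2A and 0.083 for BGLU18. With each stage centred on its median only KTI1 was called (limma adjusted p = 0.0446), while PLA2A had 0.0501 and BGLU18 0.0603. Quantile normalization ended the call of BGLU18 (limma adjusted p = 0.0601) and kept those of KTI1 and PLA2A. By the approximate error from the control columns, the difference was 4.29 standard errors for KTI1, 3.08 for AT1G52000, 2.57 for PLA2A and 1.76 for BGLU18. The 3' over 5' end ratio of the housekeeping genes differed between EBR and control shoots at recovery by log2 values of -0.47 to -0.08, lower in all 4 pairs, and its part in the differences was not tested.

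**Figure D2:**
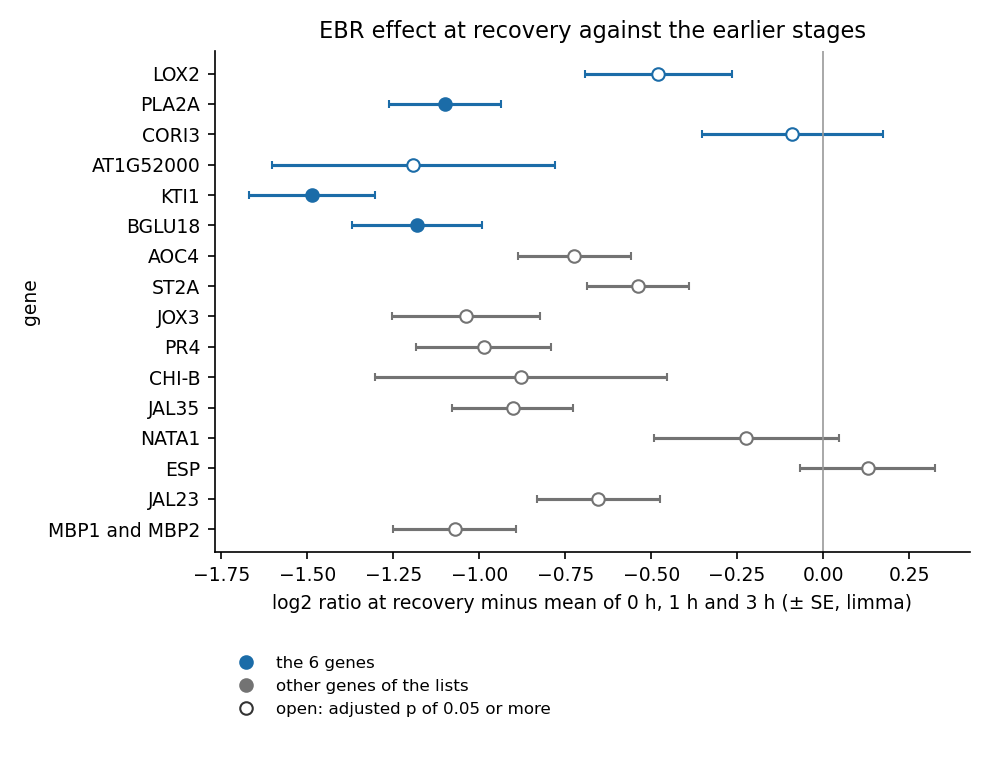
Points give the log2 EBR to control ratio at recovery minus the mean of the other 3 stages, with the limma standard error as bars, for the 6 genes (blue) and for other genes of the jasmonate, wound and lectin lists (grey). Filled points, which are PLA2A, KTI1 and BGLU18, had an adjusted p below 0.05, and ESP is the 1 gene shown above 0.

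At 0 h against the other 3 stages, limma called none of the 6 genes and no probe set of the array, although 2.69% of all probe sets had an unadjusted p below 0.05. AT1G52000 had the largest difference of the set, 1.41 ± 0.34 (SE; limma adjusted p = 0.9999). CORI3 had 0.60 ± 0.18 (SE; limma adjusted p = 0.9999), and these were the 2 genes with an unadjusted p below 0.05. The other 4 differences ran from 0.21 for KTI1 to 0.65 for BGLU18. The recovery ratio is among the stages compared here. Without it the SE was smaller for each gene except CORI3, which had 0.18 with it and 0.19 without it.

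Change with heat itself was read within each arm from the 708 probe sets in the authors' deposited table that sets all conditions beside the unstressed control. Its normalized log2 signals are condition means with no error. No test of heat within an arm was run, and both comparisons within an arm share that arm's 0 h value. KTI1 was lower by at least 2-fold after heat in both arms. In the authors' deposited table its log2 change from 0 h was -1.35 at 1 h and -1.24 at 3 h in control shoots, and -1.23 and -1.60 in EBR shoots. BGLU18 changed by -0.05 and -0.82 in control shoots and by -0.54 and -1.39 in EBR shoots in the authors' deposited table. The larger part of the difference from 0 h was thus reached at 1 h for KTI1 and after that for BGLU18.

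AT1G52000 and LOX2 differed from 0 h in opposite directions in the arms at 1 h. In control shoots AT1G52000 was higher by a log2 of 0.97 at 1 h and 0.12 at 3 h, and in EBR shoots lower with -1.10 and -1.55, per the authors' deposited table. For LOX2 the authors' deposited table gave 0.43 and -0.36 in control shoots and -0.20 and -0.73 in EBR shoots. CORI3 was higher in control shoots by 0.95 and 0.76, while its EBR signal differed from 0 h by 0.06 and 0.01 in the authors' deposited table. PLA2A had -0.41 and -0.12 in control shoots and -0.16 and -0.09 in EBR shoots in the same authors' deposited table. The value table allows a related test, since a heat change that differs between the arms is a change in the EBR to control ratio. With recovery left out, the ratio at 0 h minus the mean of 1 h and 3 h was 1.14 ± 0.20 (SE) for AT1G52000, 0.64 ± 0.19 for CORI3 and 0.25 ± 0.22 for LOX2. None of the 6 genes was called, and neither was any other probe set of the array. The lowest limma adjusted p-values of the 6 genes were 0.121 for AT1G52000 and 0.617 for CORI3. The differences at 1 h alone or 3 h alone were not tested.

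Counted over the set in the authors' deposited table, no gene was at least 2-fold higher after heat in any of the 4 comparisons, where 11.3%, 11%, 10.2% and 15% of the listed probe sets were (1 h control, 1 h EBR, 3 h control and 3 h EBR). Those at least 2-fold lower were KTI1 at 1 h in control shoots, KTI1 and AT1G52000 at 1 h with EBR, KTI1 at 3 h in control shoots, and KTI1, AT1G52000 and BGLU18 at 3 h with EBR. These were 1, 2, 1 and 3 of 6 genes, beside 20.5%, 24.3%, 22.3% and 27% of the 708 listed probe sets. The median log2 change at 3 h with EBR was -1.06 for the set and -0.33 for the listed probe sets, and in control shoots -0.24 and -0.20, all from the authors' deposited table.

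**Figure D3:**
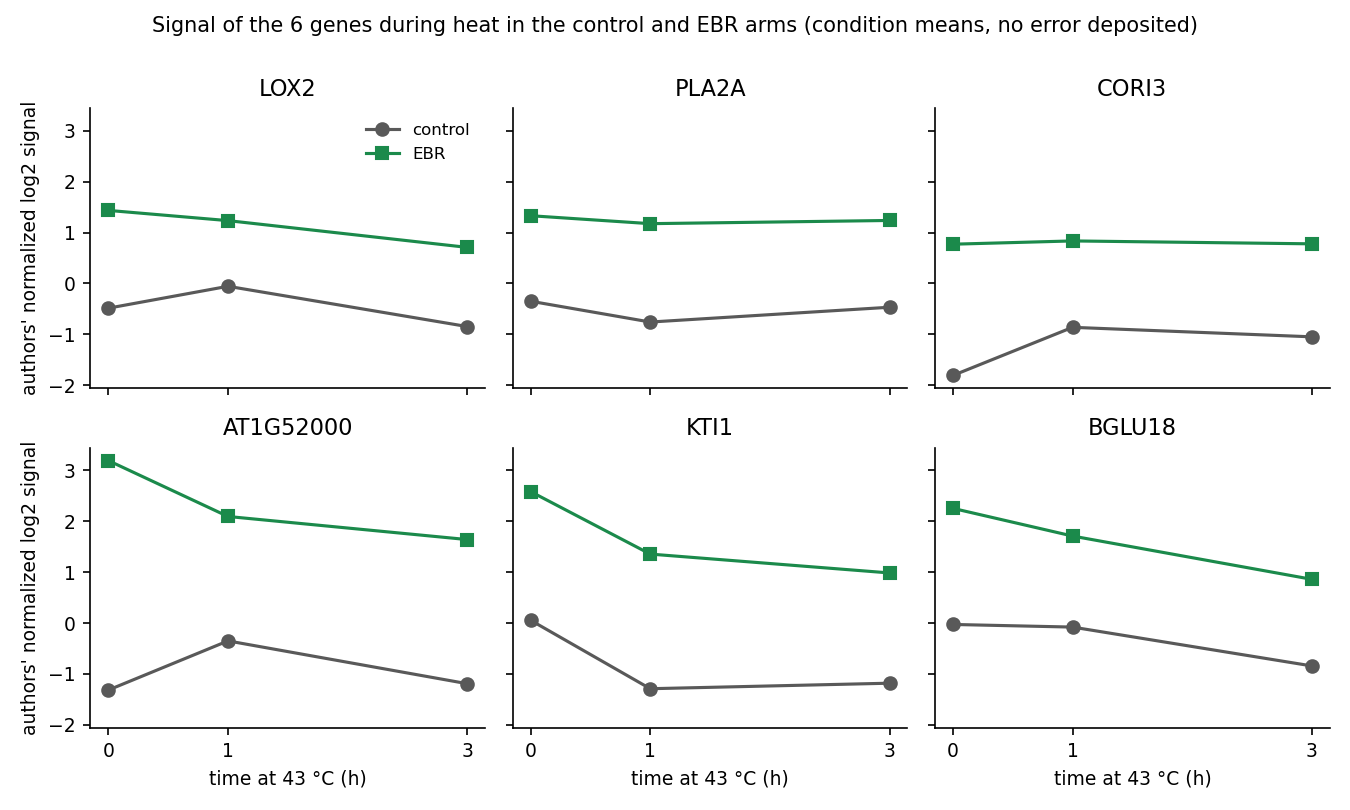
The authors' normalized log2 signal, relative to a baseline of each probe set, is plotted against time at 43°C for control (grey circles) and EBR (green squares) shoots. EBR lies above control at all 3 times in each gene, KTI1 is lower after heat in both arms, and AT1G52000 is lower with EBR but highest at 1 h in control.

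For each of the 6 genes the lowest EBR signal of the 3 stages lay above the highest control signal in the authors' deposited table, by a log2 of 0.76 for LOX2, 0.89 for BGLU18, 0.93 for KTI1, 1.52 for PLA2A, 1.63 for CORI3 and 1.99 for AT1G52000. Of the 708 listed probe sets 33.2% showed such a separation, and the selection for an EBR effect favours it. Within the control arm of the authors' deposited table the highest signal was at 0 h for PLA2A, KTI1 and BGLU18 and at 1 h for LOX2, CORI3 and AT1G52000. The first 3 are also those whose EBR effect was called smaller at recovery, but a link was not tested. These signals have no error, and those of BGLU18 in control shoots were nearly equal at 0 h and 1 h (-0.03 and -0.08). Within the EBR arm the highest was at 0 h for all but CORI3, whose 3 EBR signals of 0.77, 0.84 and 0.78 hardly differed.

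Profiles over the 6 conditions were alike among the genes. Pearson's r between members over the 6 deposited condition columns ran from 0.76 (CORI3 with KTI1) to 0.98 (LOX2 with AT1G52000), with a median of 0.92 over 15 pairs, as a description with no p. The conditions share the 2 arms, in which all members differ, and the choice of genes higher with EBR at 0 h, 1 h and 3 h favours a high r. The median over all pairs of 671 named probe sets was 0.15, but these include probe sets lowered by EBR and so are not a like comparison. Nearest to LOX2 were ECS1 (AT1G31580), AT4G15620 and CYP708A3 (AT1G78490), with r of 0.99 each. PLA2A was nearest to SOBIR1 (AT2G31880), PGDH (AT1G17745) and CAT3 (AT1G20620), with r from 0.99 to 1.00. CORI3 was nearest to WRKY70 (AT3G56400), AT1G80130 and AT1G64370, and AT1G52000 to AT3G28270, FLS2 (AT5G63580, a flavonol synthase gene) and SAG29 (AT5G13170), with r of at least 0.98. KTI1 was nearest to LTP4 (AT5G59310), AT1G55265 and LTP2 (AT2G38530), with r of 0.99. BGLU18 was nearest to CYP708A3, PMEPCRF (AT5G53370) and LOX2 itself, with r from 0.98 to 0.99. These likenesses did not carry to recovery in each case. LTP4, for example, kept a log2 EBR to control ratio of 2.97 at recovery, where KTI1 had 0.33, and CYP708A3 was at 0.02, where LOX2 had 0.77.

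Around these genes, 90 further genes of jasmonate synthesis and turnover, jasmonate signalling, jasmonate and wound output, jacalin lectins with endoplasmic reticulum bodies, and Kunitz inhibitors with patatin-like lipases were looked up. The authors' deposited tables name 9 of them by a single locus, of which 5 rose over the 4 stages. The other 4 did not pass the limma test, and no gene fell. Among all named probe sets 44.4% rose and 25.3% fell. These 9 genes had also been selected for an EBR effect, so their rises are no independent evidence of it. None of the 24 signalling genes was named, among them COI1, the JAZ repressors and the MYC factors, and neither were AOS, OPR3, VSP1, VSP2 or the PDF1.2 genes. The authors' deposited tables hold only probe sets that passed their treatment test and changed at least 2-fold. A gene that is not named thus did not meet this filter, shares a probe set with another locus, or has none on the array. Which of these holds was not tested gene by gene, and the size of any EBR effect on such genes is not known here. The median of the mean log2 ratios was 0.67 for these 9 genes, 0.33 for all 692 named probe sets and -0.03 for the array. The 692 include probe sets lowered by EBR and so are not a like comparison.

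In synthesis and turnover, ST2A (AT5G07010), a sulfotransferase gene for hydroxylated jasmonate, rose, its log2 ratio averaging 0.87 ± 0.28 over the stages (limma adjusted p = 0.00462). AOC4 (AT1G13280), an allene oxide cyclase gene of jasmonate synthesis, had 0.41 ± 0.38 and JOX3 (AT3G55970), a jasmonate oxidase gene, 0.64 ± 0.57, with limma adjusted p-values of 0.096 and 0.0718. At recovery AOC4 and JOX3 lay at -0.13 and -0.14. Without the recovery ratio both were called, with means of 0.59 and 0.90 (limma adjusted p = 0.00353 and 0.00186).

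Among outputs, the hevein-like gene PR4 (AT3G04720) rose by 1.09 ± 0.53 (limma adjusted p = 0.0109) and the acetyltransferase gene NATA1 (AT2G39030) by 0.67 ± 0.35 (limma adjusted p = 0.0168). ESP (AT1G54040), whose product steers glucosinolate breakdown, rose by 0.35 ± 0.21 (limma adjusted p = 0.0443), and that call was lost whichever stage was left out. The basic chitinase gene CHI-B (AT3G12500) had 0.87 ± 0.72 (limma adjusted p = 0.0542) with ratios of 1.86, 0.93, 0.48 and 0.21 at the 4 stages in order. JAL35 (AT3G16470), a jacalin lectin gene also called JR1, had 0.19 ± 0.48 (limma adjusted p = 0.514), with -0.48 at recovery. PR4 and NATA1 were not called without the 1 h or without the 3 h ratio. Leaving out recovery brought the count from 5 to 8 of 9, with AOC4, JOX3, CHI-B and JAL35 added and ESP lost. Over the whole array the number of called probe sets went up as well, from 2495 to 3284.

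Lectin genes of the same type were read next. They were found through the authors' listing, which an EBR effect decided, so a rise here is no independent evidence of that effect. JAL23 (AT2G39330) rose by 1.22 ± 0.36 (SD, n = 4 stages; limma adjusted p = 0.0027), with log2 ratios of 1.19, 1.36, 1.59 and 0.73 at 0 h, 1 h, 3 h and recovery. A probe set that matches both AT1G52030 and AT1G52040 rose by 1.92 ± 0.56 (limma adjusted p = 0.00202). These loci are the myrosinase-binding protein genes MBP1 and MBP2, and the symbols are not assigned to single loci here. The shared probe set falls outside the rule for named genes, since its signal cannot be divided between these loci. AT1G52030 is the next protein-coding gene to AT1G52000 in the TAIR10.1 annotation. The log2 ratios of the shared probe set were 2.00, 2.38, 2.20 and 1.12 at the 4 stages in order. Both the shared probe set and AT1G52000 thus stayed above 2-fold at recovery. In the authors' deposited table the shared probe set had larger log2 ratios of 3.89, 3.45 and 3.66 at 0 h, 1 h and 3 h. For the contrast of recovery with the other stages none of the 9 named genes was called by limma, the lowest adjusted p being 0.0808 for JAL35, and the shared probe set had 0.053. Without the 3 h ratio PR4 was called (limma adjusted p = 0.0395). The shared probe set was called with the EBR column alone, with a robust prior and without the 0 h ratio (limma adjusted p = 0.0417, 0.0448 and 0.0313).

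**Figure D4:**
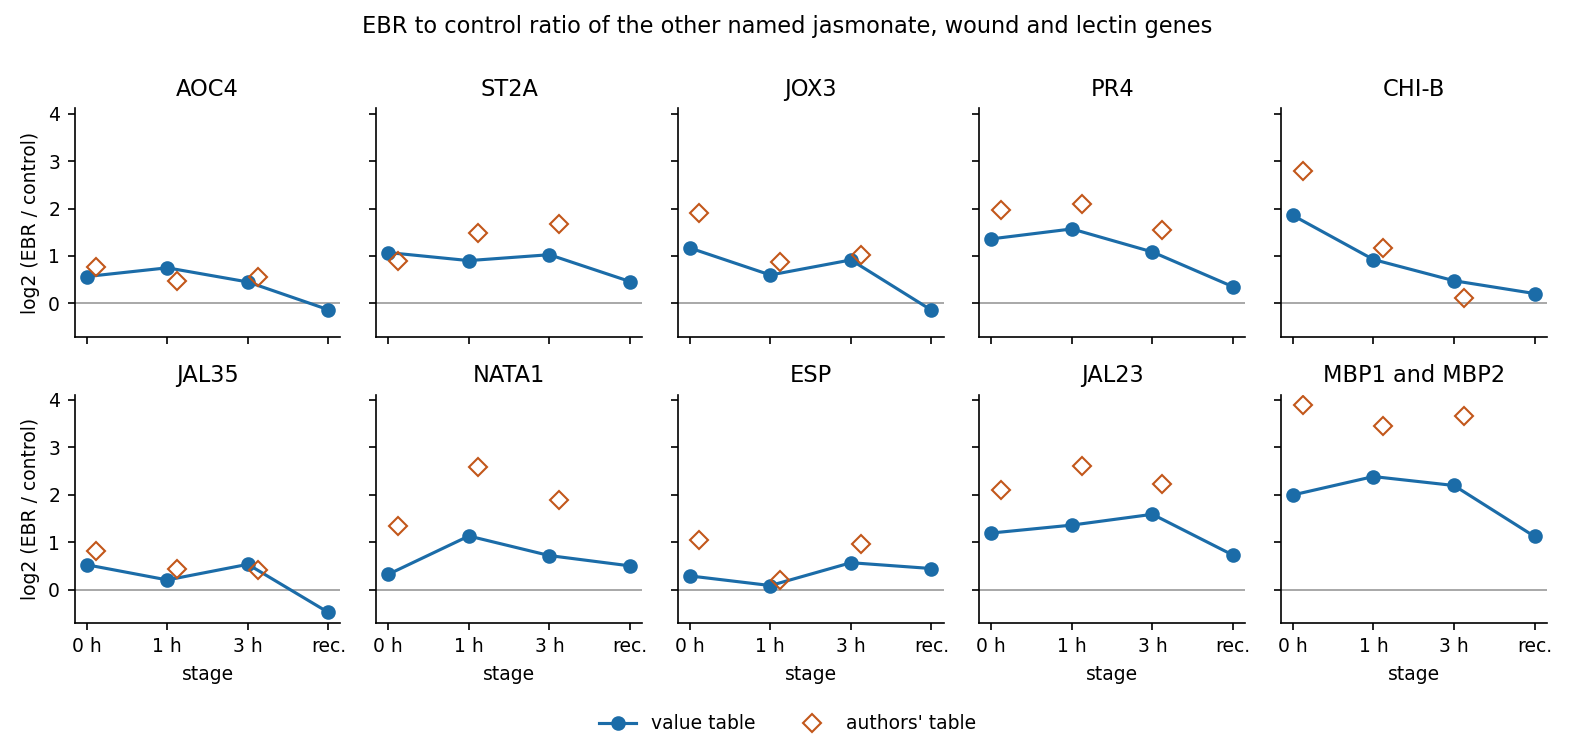
The log2 EBR to control ratio by stage is shown for the 9 other named genes of the lists and the probe set shared by MBP1 and MBP2, from the value table (circles) and from the authors' deposited table (diamonds, 0 h, 1 h and 3 h). The recovery ratio is below 0 for AOC4, JOX3 and JAL35 and remains above 1 for the shared probe set alone.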

How the data were processed

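RNA was hybridised to the Affymetrix ATH1 array, per the labels. The deposited value table holds a linear ratio per probe set and sample. Its control columns never exceed 1 (medians of 0.998 to 0.999), so each stage's control was taken as its reference, an inference from the values. Per the file headers, the authors' deposited fold tables hold linear fold, mean intensity and normalized log2 signal for probe sets that passed a 2-way analysis of variance (corrected treatment p up to 0.05) and changed at least 2-fold. MAS5 and GCRMA appear, with no role stated, per the submitters' processing notes. The sources used here do not give the step that merged 3 arrays into each sample. No array-level values were used, and precision is limited by the array number.

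The log2 of the EBR over the control column was taken at each stage, leaving out 11 array control probe sets. limma 3.58.1 (R 4.3.3) tested 22746 probe sets against 0 over the 4 stages and 1 stage against the rest, with Benjamini-Hochberg adjustment at 0.05. An exact sign-flip test of 4 ratios cannot go below a two-sided p of 0.125. Both tests were tested on simulated data, where the recovery contrast missed most changes, so a gene that it did not call may still differ. A count over heat comparisons used log2 differences of the authors' condition means.

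An approximate control SD in log2 units was computed from the shortfall of the control column from 1, taken as a geometric over an arithmetic mean of 3 arrays. The smallest values, near 0, are not reliable as errors. Levels were compared within a probe set only, except where the lowest control intensities of the set are pointed out. Members and lists were chosen with earlier results of these data known. Named genes are the 6 members, all list genes that the tables pair with a single locus, and the 3 probe sets most like each member by Pearson's r over 6 conditions. Symbols came from the TAIR10.1 reference table, or for list genes from the lists as written. Since the files name no build, no coordinates are given. The planned filter on low levels needs signal levels that the value table does not hold. The alternatives were median centring, quantile normalization, a robust prior, the EBR column alone, each stage left out, a 1.5-fold threshold, mean intensities and the authors' log2 columns.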

Additional observations from a re-analysis of the deposited data

Results flagged for a closer look

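In a limma test of the difference between stages, 3 genes had a smaller EBR effect at recovery. The log2 ratio at recovery minus the mean of the other stages was -1.49 for KTI1, -1.18 for BGLU18 and -1.10 for PLA2A (limma adjusted p = 0.0366, 0.049 and 0.0434). The genes had been listed for high ratios at the earlier stages, which tilts this comparison, and 77.8% of the 117 probe sets listed in the same way had their lowest ratio at recovery. Without the 1 h ratio none of the 3 was called (limma adjusted p = 0.0528, 0.083 and 0.0707).

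In the authors' deposited table, 2 genes differed from 0 h in opposite directions in the arms, with 1 mean per condition, and the difference at a single time was not tested. The related test over both heat times in the value table called neither gene (limma adjusted p = 0.121 for AT1G52000 and 1.0 for LOX2). It called no other probe set of the array either. LOX2 changed from 0 h to 1 h by a log2 of 0.43 in control and -0.20 in EBR shoots. AT1G52000 changed by 0.97 in control and -1.10 in EBR shoots at 1 h, and by 0.12 and -1.55 at 3 h.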

How the results depend on the processing

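No paired analysis was possible because the groups share only 1 replicate number, and arms were matched by stage alone. The filter on low levels was not run, since the value table holds no levels. Leaving out 1 stage at a time, the 4-stage test called 2 to 6 of the 6 genes, 2 to 8 of the 9 other named genes and, against 2495 probe sets in all, from 448 to 3284 over the array. The cause was not tested, and fewer stages are also a smaller test. The contrast of recovery with the rest called 0 to 3 of the 6 genes and from 35 to 178 probe sets, against 110. Median centring left 1 gene and 33 probe sets called in that contrast. CORI3, which was not called there, changed sign under quantile normalization (0.36) and ranged from -0.26 to 0.12 (without 0 h) as stages were left out, and KTI1 at 0 h against the rest ranged from -0.32 (without recovery) to 0.52. At 1.5-fold in place of 2-fold, heat left 2 genes higher in control shoots at 1 h, and 1 higher and 2 lower at 3 h. Under the other alternatives (quantile normalization, robust prior, EBR column alone and mean intensities) each count of the 6 genes stayed within 1.5 times its value, although quantile normalization ended the recovery call of BGLU18. Without array-level values the spread between replicates limits each single-stage ratio.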
